A study of Mus musculus with 4 samples.

Results

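The mouse Krueppel-like factors examined here are 10 genes of a larger family. They are expressed in bone marrow cells grown with M-CSF, the growth factor that drives marrow progenitors towards macrophages. The members were the rows of the deposited table whose symbol was Klf2, Klf3, Klf4, Klf6, Klf7, Klf9, Klf10, Klf11, Klf13 or Klf16, which came to 10 of 62046 rows. The set was chosen by the measured difference of Klf4 between genotypes in these same libraries, and it asks whether the lower level of Klf4 is shared by its relatives. The genotype difference of Klf4 is therefore given as a description, with no test, interval or p. The relatives were named with the results of the same comparison known, so their values are read as a description too.

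Krueppel-like factors are transcription factors that bind GC-rich and CACCC sequences in gene control regions through zinc fingers at their carboxyl end, which are much alike across the family. Their amino ends differ and divide the family. Klf2, Klf4, Klf6 and Klf7 mostly recruit acetyltransferases and activate genes, Klf3 binds the CtBP corepressors, and Klf9, Klf10, Klf11, Klf13 and Klf16 recruit the Sin3a corepressor. In mouse marrow Klf4 promotes the differentiation of inflammatory monocytes, and in macrophages it acts with STAT6 in alternative activation, while Klf2 restrains the inflammatory activation of myeloid cells.

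RNA of bone marrow cells exposed to M-CSF for 5 days was sequenced from 2 wild-type libraries and 2 libraries of the genotype labelled GM1082 KO or GM1082-/-, called the knockout below. The labels call all 4 samples bone marrow derived macrophages, and give no strain, sex, age, allele design or batch. Whether libraries of 1 genotype come from separate mice is not stated, so spreads and p-values describe these libraries only and may be technical. Levels are FPKM, fragments scaled to gene length and library size. In bulk RNA, fewer cells of a type and less RNA per cell cannot be told apart.

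The libraries were of like depth, with 17.6 to 19 fragments for 1 FPKM in a gene of 1 kb, as judged from whole steps in low values. Gm1082, the targeted gene, is a RefSeq synonym of Arhgap33os and matched the noncoding row NONMMUG078287.1, which stood at 0.0792 and 0.0198 FPKM in the wild-type libraries, against 0.0639 and 0.0624 FPKM in the knockout. These levels are in the ratio of 4, 1, 3 and 3 fragments, so this depth could not show whether the transcript was lost. The macrophage genes Adgre1 (139 to 158 FPKM) and Csf1r (104 to 121 FPKM), which encodes the M-CSF receptor, were present in all 4 libraries, beside the neutrophil calprotectin gene S100a8 at 7586 to 8738 FPKM. Knockout replicate 1 stood apart in its granulocyte genes. All 12 neutrophil markers tested were highest in it, where 24.5% of all rows tested were highest in that library. The summed level of 10 markers of eosinophils, basophils and mast cells was 266 FPKM there against 109 to 141 FPKM in the other 3 libraries.

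The sequences before the start sites of Klf4, Klf2 and Klf6 are shown because these activators were well expressed and Klf4 alone among them stood far lower in the knockout, at 0.488 of its wild-type mean. Each is the 250 bases before the RefSeq start on GRCm38.p6, read 5′ to 3′ on the strand of the gene. Capitals mark GC boxes (GGGCGG on either strand) and CACCC boxes (CACCC on either strand), and neighbouring GC boxes that touch share 1 run of capitals.
Klf4 (chr4:55532476-55532725, minus strand): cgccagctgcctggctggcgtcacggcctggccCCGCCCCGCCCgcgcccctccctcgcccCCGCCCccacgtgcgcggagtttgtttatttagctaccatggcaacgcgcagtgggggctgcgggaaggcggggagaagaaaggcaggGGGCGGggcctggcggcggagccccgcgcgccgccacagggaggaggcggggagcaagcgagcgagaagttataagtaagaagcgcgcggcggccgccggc
Klf2 (chr8:72318812-72319061, plus strand): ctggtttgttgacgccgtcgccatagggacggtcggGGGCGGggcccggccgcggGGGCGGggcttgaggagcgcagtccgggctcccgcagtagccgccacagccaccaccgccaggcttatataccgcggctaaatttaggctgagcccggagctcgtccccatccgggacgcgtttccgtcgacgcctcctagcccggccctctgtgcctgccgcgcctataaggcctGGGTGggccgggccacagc
Klf6 (chr13:5861239-5861488, plus strand): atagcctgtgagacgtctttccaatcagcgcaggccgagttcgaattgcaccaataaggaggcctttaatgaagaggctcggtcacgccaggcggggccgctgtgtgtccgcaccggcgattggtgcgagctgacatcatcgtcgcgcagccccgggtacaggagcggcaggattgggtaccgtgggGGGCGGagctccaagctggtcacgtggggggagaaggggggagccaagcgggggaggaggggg

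The window of Klf4 held 4 GC boxes and 0 CACCC boxes, that of Klf2 held 2 GC boxes and 1 CACCC box, and that of Klf6 held 1 GC box and 0 CACCC boxes. Windows were found for 8 members, Klf10 and Klf16 having no entry, and 7 of the 8 held a GC box against 32.7% of the 32851 mouse windows in the table. A CACCC box was found in 5 of the 8 against 52.0% of all windows. The motif TATAAA, searched on both strands, was found in 0 of the 8 and in 12.4% of all windows. Of the CACCC boxes, 1 in Klf3 and 1 in Klf13 overlapped a GC box. The windows of the members were rich in G and C (59.2% to 78.4%, against a median of 52.4% over all windows), and GC boxes move with that composition. The window of Klf3 was the densest, with 6 GC boxes and 5 CACCC boxes.

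Klf4 was lower in the knockout, where both libraries lay below the wild-type range. It lies on chromosome 4 (55527143 to 55532466, minus strand, read as GRCm38) and stood at 12.0 FPKM in wild-type replicate 1, 11.5 FPKM in wild-type replicate 2, 5.37 FPKM in knockout replicate 1 and 6.13 FPKM in knockout replicate 2. The libraries of a genotype lay close together, and the genotypes did not overlap. The means were 11.8 ± 0.358 and 5.75 ± 0.537 FPKM (SD, n = 2 each), so the knockout mean was 0.488 of the wild-type mean. On the log2(FPKM + 1) scale the log2 change (knockout minus wild type) was -0.92. Of the 24535 rows tested, 65 had a log2 change at least as low, among them 4 of the 10516 protein-coding rows, with Klf4 counted in both. Klf4 was chosen for this difference, so its place among the rows is a description and no test. Over the alternatives tried its log2 change ran from -1.03 to -0.84.

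None of the relatives passed the test over all rows. With limma and an adjusted p below 0.05, 0 of the 9 relatives were called, where 3 of the 24535 rows (0.0122%) were called in all, and 1314 rows had an unadjusted p below 0.05. Klf4, which this same contrast chose, was not among the called rows, and nothing is read from that. Of the relatives, 0 of 9 had an unadjusted p below 0.05. The log2 changes of the 9 relatives lay between -0.17 and 0.27, with 4 lower, 5 higher and a median of 0.0067, beside a median of -0.010 over all rows tested, of which 52.5% were lower. As ratios of means, the relatives lay between 0.874 and 1.25. Their 95% limma intervals reached down to -0.49 at the lowest. These intervals are not adjusted for the number of genes, and the difference between Klf4 and its relatives was not tested, since Klf4 was picked for its difference.

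**Figure D1:**
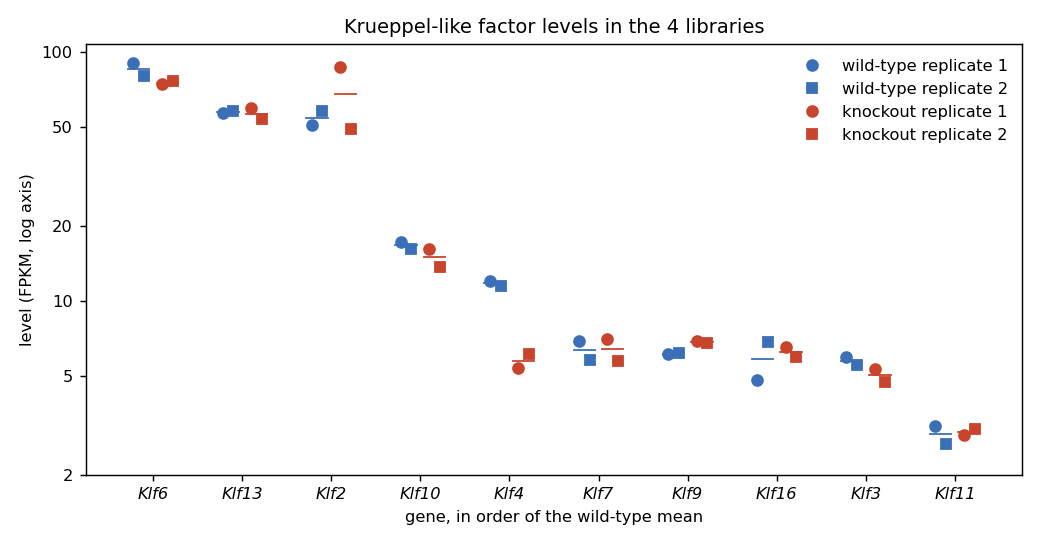
Level in FPKM on a log axis for each of the 10 genes, in order of the wild-type mean, with 1 point per library (blue wild type, red knockout, circles replicate 1, squares replicate 2) and a line at each genotype mean. Klf4 is the gene whose genotypes lie far apart (12.0 and 11.5 against 5.37 and 6.13 FPKM), while Klf2 has 1 high library, knockout replicate 1, at 87.2 FPKM.

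**Figure D2:**
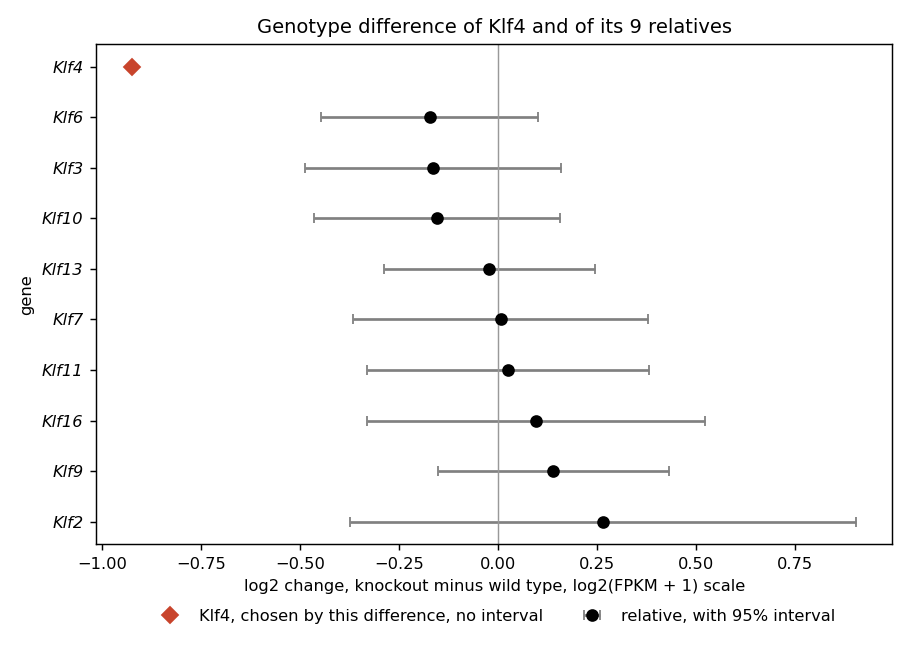
Log2 change of each gene on the log2(FPKM + 1) scale (knockout minus wild type) with the unadjusted 95% interval from limma for the 9 relatives (black, 2 libraries per genotype). Klf4 (red diamond, -0.92) has no interval because it was chosen by this difference, and the relatives lie between -0.17 and 0.27.

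In wild type the members formed a high, a middle and a low tier. Klf6 led at a mean of 85.4 ± 7.30 FPKM, followed by Klf13 (57.5 ± 0.493) and Klf2 (54.3 ± 5.01), whose libraries overlapped each other. Klf10 (16.7 ± 0.736 FPKM) and Klf4 (11.8 ± 0.358) came next and were each apart from their neighbours in the order. Klf7, Klf9, Klf16 and Klf3 had means of 6.35, 6.13, 5.82 and 5.74 FPKM and could not all be ordered, since the ranges of neighbours overlapped. Of these, Klf9 (6.11 and 6.15 FPKM) lay above Klf3 (5.97 and 5.51 FPKM) in both libraries. Klf11 was lowest at 2.90 ± 0.335 FPKM. In the knockout Klf4 stood at rank 8 rather than rank 5, between Klf16 at a mean of 6.22 FPKM, with which it overlapped, and Klf3 at 5.02 FPKM, from which it was apart.

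Set against each relative within the same library, Klf4 was lower in the knockout throughout. The ratio of Klf4 to Klf6 was 0.133 and 0.144 in wild type and 0.0721 and 0.0800 in the knockout. The ratio to Klf13 was 0.211 and 0.199 in wild type and 0.0900 and 0.114 in the knockout. For all 9 relatives both knockout ratios lay below both wild-type ratios, which the choice of Klf4 makes likely. Klf4 made up 4.73% and 4.60% of the summed FPKM of the 10 genes in wild type and 1.98% and 2.72% in the knockout. The summed FPKM of the other 9 was 243 and 239 in wild type and 266 and 219 in the knockout, so the genotypes overlapped.

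Among the activators, Klf6 was slightly lower and Klf2 and Klf7 overlapped between genotypes. Klf6, an early response factor also known from liver stellate cells, lies on chromosome 13 and stood at 90.5 and 80.2 FPKM in the wild-type libraries, against 74.4 and 76.5 FPKM in the knockout. Its libraries did not overlap, but the log2 change was small at -0.17 (SE 0.113, limma adjusted p = 1.00). Without overlap and lower in the knockout were 2 of the 9 relatives, Klf6 and Klf3, where 17.7% of all rows tested were so. Klf4 is left out of this count because it was chosen for its difference. Without overlap and higher was 1 relative, Klf9, where 13.2% of all rows were so. The genotypes of the other 6 overlapped.

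Klf2, the member nearest to Klf4 in its roles in blood vessels and myeloid cells, lies on chromosome 8 (72319033 to 72321656, plus strand). It stood at 50.8 and 57.9 FPKM in the wild-type libraries, against 87.2 and 49.0 FPKM in the knockout. Knockout replicate 1 was the high library, and knockout replicate 2 lay below both wild-type libraries. The log2 change was 0.27 (SE 0.262, limma adjusted p = 1.00), with the widest interval of the 9 relatives, from -0.37 to 0.91. Without knockout replicate 1 the change was -0.14, and without knockout replicate 2 it was 0.68. Klf7, a relative of Klf6 known from neurons and fat cells, overlapped at 6.89 and 5.80 FPKM in the wild-type libraries, against 7.02 and 5.75 FPKM in the knockout.

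Other genes were also high in knockout replicate 1. Of the 17 immediate early genes tested, which respond quickly to growth factors and stress, 10 were higher and 7 lower with a median log2 change of 0.019 (-0.14 without knockout replicate 1), and 0 passed. Of these genes, 11 were highest in knockout replicate 1, where 24.5% of all rows tested were highest in that library. Their summed FPKM was 622 and 548 in wild-type replicates 1 and 2, and 717 and 545 in knockout replicates 1 and 2. Replicate 1 was thus the higher library in both genotypes. Myc, a factor of cell growth, was at 31.3 and 34.5 FPKM in the wild-type libraries, against 36.6 and 41.2 FPKM in the knockout, highest in knockout replicate 2. Junb, a partner of Fos in AP-1, was at 84.0 and 71.1 FPKM in the wild-type libraries, against 117 and 68.9 FPKM in the knockout. Cebpb, a myeloid factor of the list of inputs to Klf2 and Klf4, was at 116 and 129 FPKM in the wild-type libraries, against 186 and 83.7 FPKM in the knockout. Junb and Cebpb were chosen after their values were seen. Of the listed genes that Klf2 is known to control in lymphocytes and endothelium, 5 were tested, 3 higher and 2 lower (median log2 change 0.077, and from -0.061 to 0.12 with 1 library left out), and 0 passed. Il7r, a cytokine receptor of lymphocytes, was at 30.7 and 27.5 FPKM in the wild-type libraries, against 23.9 and 23.0 FPKM in the knockout, and Thbd, the anticoagulant thrombomodulin, at 3.66 and 4.63 against 3.30 and 2.41 FPKM, both lower without overlap. S1pr1, the receptor that lets lymphocytes leave tissue, was at 4.39 and 6.21 FPKM in the wild-type libraries, against 7.35 and 6.28 FPKM in the knockout, higher without overlap. The part of knockout replicate 1 in the level of Klf2 was not tested beyond leaving it out.

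**Figure D3:**
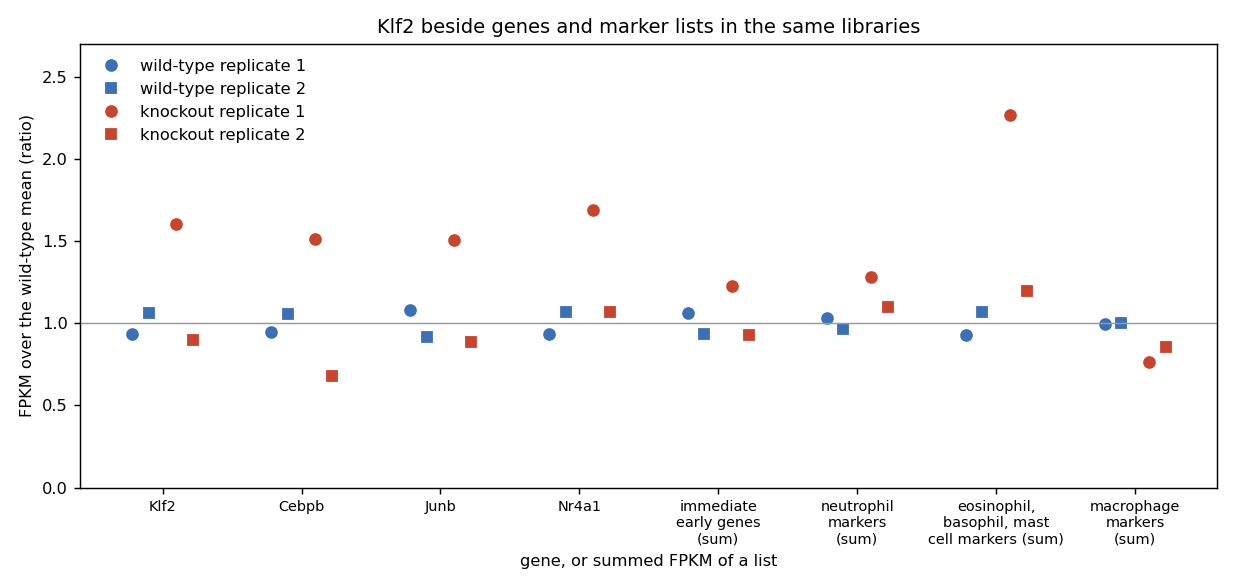
FPKM of 4 genes and summed FPKM of 4 gene lists in each library, divided by the wild-type mean (blue wild type, red knockout, circles replicate 1, squares replicate 2). Knockout replicate 1 is the highest library for Klf2, Cebpb, Junb, Nr4a1 and 3 of the list sums, and it is the lowest for the macrophage markers.

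Klf3, the member that works through CtBP, lies on chromosome 5 and stood at 5.97 and 5.51 FPKM in the wild-type libraries, against 5.32 and 4.72 FPKM in the knockout. The genotypes did not overlap, and the log2 change was -0.16 (SE 0.133, limma adjusted p = 1.00). Of the 11 listed corepressors and coactivators of the family, 6 were higher and 5 lower with a median log2 change of 0.042 (from -0.034 to 0.070 with 1 library left out), and 0 passed. Wwp1, a ubiquitin ligase, was at 8.97 and 8.73 FPKM in the wild-type libraries, against 7.74 and 8.61 FPKM in the knockout. Ctbp1 was at 24.4 and 28.8 FPKM in the wild-type libraries, against 25.6 and 25.7 FPKM in the knockout. It was named outside the rule, as a partner of Klf3.

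The 5 members that work through Sin3a had a median log2 change of 0.025. Their summed level was 88.5 and 89.7 FPKM in the wild-type libraries, against 92.2 and 83.3 FPKM in the knockout. Klf13, a factor of lymphocyte chemokine expression, was the most abundant of them, at 57.1 and 57.8 FPKM in the wild-type libraries, against 59.6 and 53.8 FPKM in the knockout. Its interval was the narrowest of the 9 relatives, from -0.29 to 0.24 around a log2 change of -0.022. Sin3a itself stood at 24.6 and 25.1 FPKM in the wild-type libraries, against 25.1 and 27.0 FPKM in the knockout, and Sin3b at 9.45 and 9.94 against 10.8 and 10.2 FPKM.

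Klf10 and Klf11 are known as genes induced by TGF-beta. Klf10 was at 17.2 and 16.2 FPKM in the wild-type libraries, against 16.2 and 13.7 FPKM in the knockout, with a log2 change of -0.15 (SE 0.128). Wild-type replicate 2 lay just below knockout replicate 1, so the genotypes overlapped. Klf11 was at 3.14 and 2.67 FPKM in the wild-type libraries, against 2.89 and 3.05 FPKM in the knockout, the knockout libraries lying between those of wild type. Of the 10 tested genes of TGF-beta signalling, 6 were higher and 4 lower (median log2 change 0.020, and from -0.051 to 0.044 with 1 library left out), and 0 passed. Skil, a feedback inhibitor of the pathway, was at 21.9 and 19.6 FPKM in the wild-type libraries, against 17.8 and 19.4 FPKM in the knockout, and Smad3, a factor the receptors activate, at 4.08 and 4.80 against 5.92 and 4.36 FPKM.

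Klf9, which glucocorticoid and thyroid hormones induce, had the tightest replicates of the members. It stood at 6.11 and 6.15 FPKM in the wild-type libraries, against 6.90 and 6.80 FPKM in the knockout. Both knockout libraries were higher, with a log2 change of 0.14 (SE 0.12, limma adjusted p = 1.00), and it stayed between 0.13 and 0.16 under the alternatives tried. Of the 7 genes of the glucocorticoid receptor and its targets, 5 were higher and 2 lower (median 0.0093, and from -0.15 to 0.18 with 1 library left out), and 0 passed. Zbtb16, a zinc finger factor, was at 0.705 and 0.873 FPKM in the wild-type libraries, against 1.75 and 1.11 FPKM in the knockout, higher without overlap. Sgk1, a kinase that the hormone induces, was at 27.0 and 21.7 FPKM in the wild-type libraries, against 21.2 and 17.9 FPKM in the knockout, lower without overlap. Fkbp5, another target of the receptor, was at 19.8 and 18.8 FPKM in the wild-type libraries, against 18.3 and 18.4 FPKM in the knockout. Klf16, a GC-box binding repressor, ranged from 4.82 to 6.82 FPKM within wild type, and its knockout libraries at 6.50 and 5.93 FPKM lay inside that range.

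Outside the 10 genes, the family was at low levels in these cultures. Klf5, an epithelial and stem cell factor, was the only other Krueppel-like factor above the filter, at 1.84 and 1.31 FPKM in the wild-type libraries, against 1.96 and 1.44 FPKM in the knockout. Klf8, Klf12 and Klf15 had means below 1 FPKM and were not tested, and Klf14 and Klf17 were not analysed here. Klf1, the erythroid factor that drives globin genes, was at 0.103 and 0.0343 FPKM in the wild-type libraries, against 0.590 and 0.252 FPKM in the knockout. As whole fragments these values are 3, 1, 16 and 7 at the least, so the gene was higher in both knockout libraries on very few reads. Beside it, Gata1, a factor of erythroid cells, megakaryocytes, eosinophils and mast cells, was at 1.72 and 2.11 FPKM in the wild-type libraries, against 4.40 and 2.33 FPKM in the knockout, while the globin gene Hba-a1 was at 4.33 and 5.29 against 3.41 and 3.80 FPKM.

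The related SP factors, which bind GC boxes through similar zinc fingers, overlapped between genotypes where tested. Of the 9 listed, 7 were in the table and 4 were tested, 2 higher and 2 lower, with 0 called and 0 without overlap. Sp2 was at 10.7 and 10.3 FPKM in the wild-type libraries, against 12.4 and 10.4 FPKM in the knockout. Sp1 was at 32.9 and 30.5 FPKM in the wild-type libraries, against 30.9 and 32.7 FPKM in the knockout. Sp3 was at 34.8 and 31.1 FPKM in the wild-type libraries, against 31.4 and 32.3 FPKM in the knockout. Sp1 and Sp3 stood above Klf4 and below Klf2, Klf6 and Klf13 on the FPKM scale in all 4 libraries.

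A noncoding row beside Klf4 was lower by about as much as Klf4. NONMMUG072106.2 lies on the opposite strand from Klf4 (chromosome 4, 55532765 to 55599297) and begins 299 bases upstream of its start, 39 bases beyond the far end of the window printed for Klf4. It was at 0.333 and 0.307 FPKM in the wild-type libraries, against 0.142 and 0.138 FPKM in the knockout. The genotypes did not overlap, and the knockout mean was 0.437 of the wild-type mean. Without overlap and lower were 16.8% of all rows whose mean reached 0.1 FPKM. The row was too low to be tested, its exon length is not given, and whether reads of Klf4 were counted in it was not tested. It was found after the values were seen, by listing the rows that overlap or lie within 5 kb of a member.

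That listing held 27 rows around the 10 genes, of which 12 were tested and 0 passed. Apart from the row beside Klf4, 3 were lower without overlap and 2 were higher. Of the 12 tested, 2 were lower without overlap and 0 higher, where 17.7% and 13.2% of all rows tested were so. Inside Klf13 and on its opposite strand, NONMMUG078504.1 was at 11.6 and 10.9 FPKM in the wild-type libraries, against 8.76 and 7.62 FPKM in the knockout. E030018B13Rik, which covers almost the same bases, was at 7.34 and 6.09 against 5.84 and 5.75 FPKM, and the 2 rows may share reads. Near Klf2, NONMMUG040922.2 lies 691 bases upstream on the opposite strand and was at 0.0809 and 0.323 FPKM in the wild-type libraries, against 0.871 and 0.425 FPKM in the knockout, highest in knockout replicate 1 as Klf2 was. The next protein-coding row on the 3′ side of Klf4, Rad23b, a DNA repair gene 134906 bases away, was at 31.5 and 32.3 FPKM in the wild-type libraries, against 30.1 and 33.8 FPKM in the knockout. Reads of overlapping rows may be split between them, since how strand was handled is not stated.

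The genes whose 4 values ran most like those of Klf4 were Fn1, Plxdc2, Asns, Ctsk and Sumf1. Likeness was the distance between the 4 log2(FPKM + 1) values, each gene centred on its own mean, over protein-coding rows whose mean reached 5 FPKM, so these genes are lower in the knockout by choice. Fn1, which encodes the matrix protein fibronectin, was nearest at a distance of 0.147, with 67.8 and 60.4 FPKM in the wild-type libraries, against 31.8 and 39.2 FPKM in the knockout. Like Klf4, it was lowest in knockout replicate 1. Plxdc2, a transmembrane protein gene, was at 21.0 and 19.1 FPKM in the wild-type libraries, against 10.6 and 14.3 FPKM in the knockout. Asns, the asparagine synthetase gene, was at 56.4 and 45.4 FPKM in the wild-type libraries, against 33.0 and 28.6 FPKM in the knockout. Ctsk, the protease cathepsin K, was at 7.04 and 6.93 against 4.59 and 4.37 FPKM, and Sumf1, the activator of sulfatases, at 19.4 and 17.7 against 11.9 and 14.0 FPKM.

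**Figure D4:**
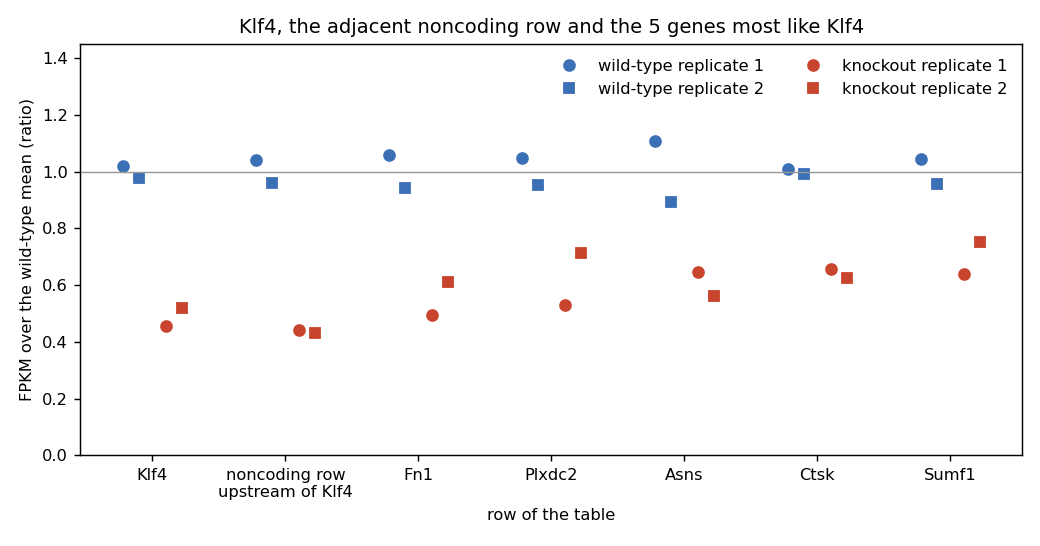
FPKM in each library divided by the wild-type mean, for Klf4, the noncoding row that begins 299 bases upstream of it and the 5 genes most like Klf4 (blue wild type, red knockout, circles replicate 1, squares replicate 2). All 7 rows have both knockout libraries below both wild-type libraries, which for the 5 genes follows from how they were chosen.

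Of 10 genes known to act upstream of Klf4 and Klf2, 4 were higher and 6 lower, and 0 passed. Their median log2 change was -0.027, and ran from -0.14 to 0.096 with 1 library left out, so its sign rested on single libraries. Mef2a, a MADS-box factor activated by ERK5, was at 13.0 and 12.6 FPKM in the wild-type libraries, against 10.3 and 11.3 FPKM in the knockout, lower without overlap. Its relative Mef2c was at 2.96 and 3.78 FPKM in the wild-type libraries, against 3.96 and 4.42 FPKM in the knockout, higher without overlap. Mapk7, which encodes ERK5, was at 8.44 and 7.99 FPKM in the wild-type libraries, against 8.12 and 6.26 FPKM in the knockout. Irf8, which acts ahead of Klf4 in mouse monocyte progenitors, was at 20.9 and 22.7 against 21.8 and 20.7 FPKM, and Spi1, the myeloid factor PU.1, at 83.2 and 87.8 against 97.2 and 77.9 FPKM. Stat6, the partner of Klf4 in alternative activation, was at 65.4 and 65.9 FPKM in the wild-type libraries, against 72.4 and 59.7 FPKM in the knockout. Irf8, Spi1 and Stat6 were named outside the rule for their ties to Klf4.

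Of 11 tested genes of alternative activation, 7 were lower, 4 were higher and 0 passed. The median was -0.039 on the log2 scale, -0.079 if wild-type replicate 1 was left out and 0.019 with no filter. Pparg, a receptor for fatty acids, was at 7.46 and 8.07 FPKM in the wild-type libraries, against 4.91 and 5.47 FPKM in the knockout, without overlap (limma adjusted p = 0.742). Irf4 was at 27.0 and 28.3 FPKM in the wild-type libraries, against 23.2 and 25.7 FPKM in the knockout. Arg1, a classic marker of the state, overlapped at 53.4 and 32.8 against 55.4 and 33.7 FPKM, and Mrc1 at 9.52 and 10.3 against 10.1 and 13.1 FPKM. Arg1 was named outside the rule.

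The means of the tested granulocyte and progenitor markers were higher in the knockout, in which Klf4 was lower, though not every marker separated the groups. Of 6 monocyte markers tested, 4 were higher and 2 lower (median log2 change 0.030). Ccr2, the chemokine receptor of inflammatory monocytes, was at 60.3 and 55.0 FPKM in the wild-type libraries, against 31.2 and 48.9 FPKM in the knockout, and Spn, a sialoprotein of patrolling monocytes, at 35.1 and 39.4 against 45.5 and 44.1 FPKM, the former lower and the latter higher without overlap. Ly6c2 overlapped at 176 and 157 against 178 and 154 FPKM. Of 7 macrophage markers tested, 6 were lower and 1 higher, with summed FPKM of 2370 and 2380 in wild type and 1809 and 2038 in the knockout. Most of that sum was Lyz2, the lysozyme gene, and without it the sum was 464 and 445 in wild type and 437 and 452 in the knockout. All 12 neutrophil markers were higher (median 0.44, 0.15 without knockout replicate 1 and 0.97 without knockout replicate 2), summing to 17383 and 16305 FPKM in wild type and 21548 and 18515 in the knockout. Most of these sums were S100a8 (7842 and 7586 against 8738 and 8480 FPKM) and S100a9 (8136 and 7380 against 10168 and 8647 FPKM). Of the 12 markers, 7 were higher without overlap, where 13.2% of all rows tested were so. Ngp, Ltf and Camp were lower in knockout replicate 2 (732, 88.7 and 29.0 FPKM) than in both wild-type libraries. All 10 tested markers of eosinophils, basophils and mast cells were higher (median 0.73, 0.52 without knockout replicate 1 and 0.88 without knockout replicate 2). All 7 progenitor markers were higher (median 0.20, 0.22 without knockout replicate 1 and 0.37 without knockout replicate 2). Of 10 B cell markers 7 were higher and 3 lower (median 0.073), among them the light chain gene Igkc at 125 and 181 against 278 and 380 FPKM and the recombinase gene Rag1 at 6.63 and 9.79 against 4.74 and 2.88 FPKM. Of 10 markers of T and NK cells 2 were above the filter. Nkg7, at 2.18 and 1.38 against 5.74 and 2.59 FPKM, was higher without overlap. Cd4, at 1.85 and 2.09 against 1.27 and 1.60 FPKM, was lower without overlap. Below the filter, Ncr1 was listed at 0 in wild-type replicate 2 and at 0.204 FPKM in wild-type replicate 1. Of 6 tested markers of erythroid cells and megakaryocytes 5 were higher (median 0.23, 0.15 without knockout replicate 1 and 0.41 without knockout replicate 2), and of 4 dendritic cell markers 3 were higher (median 0.085). Of 7 markers of fibroblasts and endothelium 2 were above the filter. With 1 library left out in turn the median ran from -0.076 to 0.13 for monocytes, from -0.20 to 0.34 for B cells and from -0.044 to 0.16 for dendritic cells, so the sign of these medians rested on single libraries. In none of these lists did a member pass. Without knockout replicate 1, in which most granulocyte markers were highest, the log2 change of Klf4 was -0.84. In the 7 neutrophil markers without overlap, knockout replicate 2 lay above both wild-type libraries by definition. Over all 12, the median log2 change without knockout replicate 1 was 0.15, against 0.44 with it. The part of the cell types above in the level of Klf4 was not tested.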

How the data were processed

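The authors deposited 1 table of FPKM values for 62046 genes, per the file headers. The submitters' processing notes name Bowtie 0.12.2 and mm9. How reads were assigned to genes, with what annotation and strand setting, is not given in the sources used here. Positions of the 10 members in the table lay within 1218 bases of RefSeq positions on GRCm38 and were read as that build.

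The 24535 rows whose mean level reached 1 FPKM were compared between genotypes with limma 3.58.1 under R 4.3.3, on log2(FPKM + 1). The moderated variances followed a mean-variance trend (4.04 prior degrees of freedom), and the design held the genotype only. P-values were adjusted over all rows by Benjamini and Hochberg and read at 0.05. The pseudocount understates differences of low genes. All 10 members passed the filter, and of the listed genes Zfp36, Siglecf and Itgam were not analysed here. An exact two-sided permutation test of 2 libraries against 2 cannot go below p = 0.333, so none is given. Depth was judged from noncoding rows spanning 1000 to 3000 bases, whose low values lay within 0.05 of whole multiples of 1 fragment in 83.0% to 83.8% of cases, and this covers counting error only. The fit was tested on simulated data.

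The members and lists were chosen with earlier results of these data known. Named genes were the members, the other KLF and SP genes, Gm1082, up to 3 genes per described list by the smallest unadjusted p, and the 5 genes most like Klf4. Genes named beyond this rule were picked as examples with their values known. The 22 symbols held by more than 1 row were not used. Over the rows tested as a whole, same-numbered libraries did not deviate together (r = 0.0509). This does not hold for every set of genes. The summed FPKM of the immediate early genes was higher in replicate 1 of both genotypes. Alternatives tried were another pseudocount (0.1), other filters (0.1 FPKM, 5 FPKM, none), median-of-ratios and quantile scaling, other variance settings, a replicate block and each library left out. Promoter windows are from RefSeq, GRCm38.p6.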

Additional observations from a re-analysis of the deposited data

How the results depend on the processing

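No alternative called a relative of Klf4: 0 of 9 passed under every setting tried. The log2 change of Klf4, a description, ran from -1.03 to -0.84. Over all rows the 3 calls became 0 with a filter of 0.1 FPKM, 0 with no filter and 6 with the replicate block, and ran from 0 to 24 with 1 library left out. The replicate block changed no call of a relative. The median log2 change of the members ran from -0.13 (without knockout replicate 1) to 0.024 (without knockout replicate 2), and the count of lower members from 5 to 7. Directions turned for 5 relatives, each with a library left out: Klf16 ran from -0.12 to 0.31, Klf7 from -0.12 to 0.13, Klf11 from -0.062 to 0.11, Klf2 from -0.14 to 0.68 and Klf13 from -0.095 to 0.052. The level order matched at 6 of 10 ranks in wild-type replicate 2 alone, and at 8 of 10 in wild-type replicate 1 alone. Klf11 has no value with a filter of 5 FPKM. Differences of the relatives smaller than their intervals were not detectable with 2 libraries per genotype.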
